A study of Homo sapiens with 36 samples.

Results

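The 10 genes described here, which FOXO transcription factors and the PI3K-AKT pathway act on or which belong to that pathway, were followed through 36 RNA libraries of 4 human lung cancer cell lines. They are SELENOP, PIK3IP1, BCL6, CCNG2, TXNIP, SESN3, INSR, IRS2, FOXO1 and FOXO3, and their entries were found by gene name, 10 of the 66366 genes kept. SELENOP was chosen by its measured difference between the aptamer MinE07 and the control aptamer in H1975 cells. For that reason every value of SELENOP in H1975 is given as a description, without a test. The other members are textbook genes of this pathway, and they too were chosen with earlier results of these data known.

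Growth factor receptors such as EGFR and the insulin receptor activate PI3K, which leads to activation of the kinase AKT. AKT phosphorylates FOXO proteins and keeps them out of the nucleus. When the pathway is less active, FOXO proteins enter the nucleus and can raise genes that slow growth, handle stress or restore receptor signalling.

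H3255 carries EGFR with L858R, H1975 carries L858R and T790M, H820 carries an exon 19 deletion and T790M, and A549 has wild-type EGFR. Each line received 1 of 3 treatments. MinE07 is an aptamer, a folded RNA selected to bind a protein, and its target is EGFR. C36, in an extended form, was the control RNA, and DPBS with magnesium was the vehicle. Each of the 12 groups had 3 libraries, taken after 24 h in medium with 1% serum, with aptamers at 3 µM. A549 grew in DMEM and the other lines in RPMI, so medium and A549 cannot be told apart, and each line is 1 genotype and 1 background at once. The series record calls the experiments biologically independent; p-values measure the spread between these libraries.

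Levels are the authors' FPKM (fragments scaled by gene length and library size), so genes can be compared per length. Against the median library, relative depth was between 0.59 and 1.385, and read counts are not given. Epithelial markers (EPCAM, CDH1 and 3 keratins) were at 1 FPKM or more in every line, 5 of 5. Of 5 lung alveolar markers, H3255 had 4 at that level, H1975 and H820 had 2 each, and A549 had 0. The 5 fibroblast markers summed to 14.8 to 15.9 FPKM with MinE07 in H1975, above 11.3 to 12.9 with C36, and these ranges overlapped in the other lines. The alveolar markers there summed to 33.2 to 36.1 with MinE07 and 25.9 to 27.2 with C36, and the epithelial ones to 1482 to 1535 and 1388 to 1462. In H3255 the epithelial markers summed to 1542 to 1594 FPKM with MinE07 and 1722 to 1761 with C36, and the alveolar ones to 388 to 416 and 341 to 350. CD68 was the single leukocyte marker at 1 FPKM or more in any line, and no endothelial marker was. The part of these markers in the results was not tested, and in bulk RNA fewer cells with a transcript and less of it per cell cannot be told apart.

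The promoters are shown first, because FOXO proteins bind short DNA elements, and the 4 printed are those whose windows hold one of the motifs searched. The 10 members had 16 start sites in the RefSeq promoter table (GRCh38.p14), each with 250 bases before and 50 after the start. The FOXO core GTAAACA, searched on both strands, stood in the windows of 3 members, SELENOP, TXNIP and PIK3IP1, which is 3 of the 16 member windows, against 3.42% of all 35116 windows. The insulin response letters CAAAACAA stood in 1 of the 16, that of IRS2, and in 1.68% of all windows. The carbohydrate response element (CACGNG, 5 further bases and CACGNG again) stood in 1 of the 16, that of TXNIP, and in 0.057% of all windows. A match describes letters and is not shown to be a bound site, and none of these matches overlapped another. The stretches run from 150 bases before to 30 bases after the start, on the gene's strand, which is the minus strand for all 4, with the matches in capitals.
SELENOP: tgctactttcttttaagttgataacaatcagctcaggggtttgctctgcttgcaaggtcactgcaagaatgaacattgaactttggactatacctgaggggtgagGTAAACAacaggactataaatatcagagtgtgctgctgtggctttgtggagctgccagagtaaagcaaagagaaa
PIK3IP1, second start: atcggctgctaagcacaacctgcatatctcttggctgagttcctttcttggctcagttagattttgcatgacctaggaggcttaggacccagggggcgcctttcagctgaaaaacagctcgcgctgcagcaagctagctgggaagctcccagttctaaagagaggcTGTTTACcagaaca
TXNIP, first start: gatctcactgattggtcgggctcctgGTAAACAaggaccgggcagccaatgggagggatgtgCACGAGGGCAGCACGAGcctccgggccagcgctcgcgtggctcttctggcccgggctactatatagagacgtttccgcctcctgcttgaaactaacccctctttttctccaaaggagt
IRS2: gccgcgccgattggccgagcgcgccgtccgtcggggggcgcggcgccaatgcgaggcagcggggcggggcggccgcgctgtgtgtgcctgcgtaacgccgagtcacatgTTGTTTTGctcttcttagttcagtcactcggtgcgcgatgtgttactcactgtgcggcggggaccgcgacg
These stretches lie at chr5:42811863-42812042, chr22:31292459-31292638, chr1:145996550-145996729 and chr13:109786554-109786733. The match began 45 bases before the start of SELENOP and 124 before that of TXNIP. In PIK3IP1 the reverse complement TGTTTAC began at base 17 of the transcript from the second start, and in IRS2 the reverse complement TTGTTTTG began 41 bases before the start.

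The 4 lines differed in how much of each gene they held before any aptamer. SELENOP, which encodes the secreted selenium carrier selenoprotein P, had 25.9 ± 1.67 FPKM (SD, n = 3) in vehicle libraries of H820, 6.26 ± 0.284 in H3255, 1.07 ± 0.0827 in H1975 and 0.244 ± 0.0826 in A549. TXNIP, which encodes the thioredoxin-binding arrestin-like protein that restrains glucose uptake, was the highest member in the EGFR-mutant lines, with 85.3 ± 1.95 FPKM in H1975, 82.6 ± 2.53 in H3255, 40.6 ± 1.19 in H820 and 0.403 ± 0.288 in A549. A549 was thus the line with little SELENOP and TXNIP, and it also had 0.206 ± 0.0384 FPKM of PIK3IP1, against 1.94 ± 0.0772 in H3255. The vehicle libraries of H1975 and H3255 overlapped for TXNIP, and all other neighbouring lines were apart for these 3 genes.
IRS2, the insulin receptor substrate that couples receptors to PI3K, was highest in A549, with 8.85 ± 0.655 FPKM there, 3.57 ± 0.0493 in H1975, 1.47 ± 0.111 in H3255 and 1.11 ± 0.0686 in H820. INSR, the insulin receptor, was highest in H1975 at 2.85 ± 0.240 FPKM and lowest in A549 at 1.02 ± 0.101. SESN3, a sestrin that lowers mTORC1 activity, had 7.84 ± 0.0922 FPKM in H820 and 6.43 ± 0.264 in H3255, but 0.694 ± 0.0934 in A549 and 0.585 ± 0.0545 in H1975, whose libraries overlapped. CCNG2, the unconventional cyclin G2, ran from 8.35 ± 0.263 FPKM in H820 to 2.20 ± 0.169 in A549.
BCL6, a transcriptional repressor, had 4.78 ± 0.376 FPKM in H820 and 4.67 ± 0.366 in H1975, which overlapped, then 2.19 ± 0.178 in A549 and 1.58 ± 0.0956 in H3255. FOXO3 was the higher of both FOXO members in every line, from 14.2 ± 0.554 FPKM in H820 to 2.60 ± 0.308 in A549. FOXO1 had 2.67 ± 0.0947 FPKM in H820, 1.15 ± 0.0536 in A549, 0.816 ± 0.0515 in H1975 and 0.144 ± 0.0258 in H3255. H3255 thus held the least FOXO1.

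**Figure D1:**
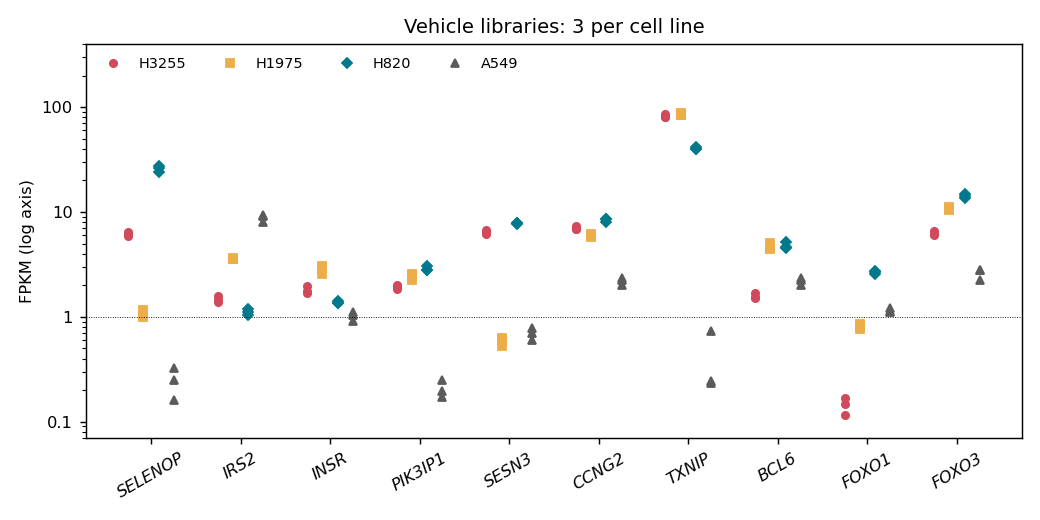
FPKM of the 10 members (log axis) in the 3 vehicle libraries of each line, 1 point per library; the dotted line is the minimum mean of 1 FPKM for a test. The A549 points for SELENOP, PIK3IP1 and TXNIP lie under that line, and those for IRS2 are the highest.

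With MinE07 against C36, 6 of the 9 members tested in H3255 passed the test: SELENOP, PIK3IP1, BCL6 and FOXO3 rose, while IRS2 and CCNG2 fell. In that comparison 36.7% of all 13429 genes tested were called, 16.6% higher and 20.0% lower. In H1975, 4 of the 7 members with a test rose (PIK3IP1, TXNIP, CCNG2 and BCL6) and 0 fell, where 19.9% of 14183 genes were called, 8.88% higher and 11.1% lower. No member passed in H820, where 0.0364% of 13753 genes were called and 3 members (PIK3IP1, SELENOP and TXNIP) had an unadjusted p under 0.05, as had 10.2% of all genes. None passed in A549, where 0 of 13425 genes were called, 1455 had an unadjusted p under 0.05, and 0 members did. The tests are limma on log2(FPKM + 0.5) with Benjamini-Hochberg adjustment over all genes tested in the line, and a member needed a mean of 1 FPKM in the line. FOXO1 missed that mean in H3255, FOXO1 and SESN3 in H1975, and SELENOP, PIK3IP1, SESN3 and TXNIP in A549. The median log2 difference of the members at that mean was 0.06 (H3255), 0.21 (H1975), 0.03 (H820) and 0.01 (A549), beside -0.01, -0.01, 0.01 and 0.00 over all genes. The H1975 median is over 8 members and includes SELENOP, whose values there chose the gene.

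**Figure D2:**
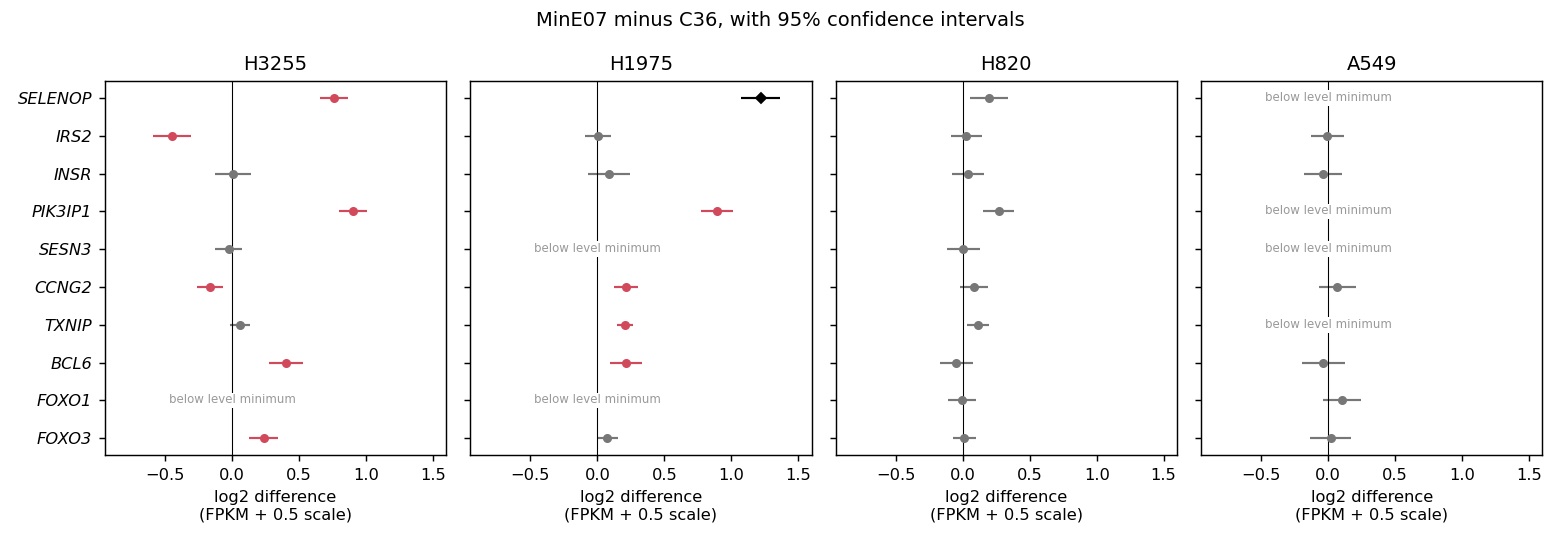
Difference between MinE07 and C36 for each member and line on the log2(FPKM + 0.5) scale, with 95% confidence intervals from limma. Red points passed at an adjusted p under 0.05, grey points did not, and the black diamond is SELENOP in H1975, given with no test; PIK3IP1 lies near 0.9 in both L858R lines.

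PIK3IP1 (chr22:31281593-31292534, minus strand, GRCh38 in GENCODE 29) encodes a membrane protein that binds the catalytic subunit of PI3K and lowers its activity, so it acts as a brake at the top of the pathway. In H3255 its level was 3.95, 4.02 and 3.81 FPKM with MinE07, 1.90, 1.88 and 1.81 with C36, and 1.85, 2.01 and 1.95 with vehicle. All 3 MinE07 libraries lay above all 6 others, and C36 overlapped vehicle. The ratio of the MinE07 and C36 means was 2.11, and limma gave a log2 rise of 0.91 (SE 0.047, adjusted p 4.57e-07).
H1975 gave nearly the same size of response in PIK3IP1. Its level was 4.97, 4.60 and 4.86 FPKM with MinE07, 2.26, 2.32 and 2.49 with C36, and 2.45, 2.25 and 2.56 with vehicle. MinE07 again lay above all 6 other libraries, with a ratio of means of 2.04 and a log2 rise of 0.89 (SE 0.055, adjusted p 2.97e-05 by limma). The difference between the responses of H3255 and H1975 was 0.01 (SE 0.070, adjusted p 0.947 by limma over all 36 libraries), which does not show that the lines respond alike.
In H820 the libraries had 3.30, 3.10 and 3.17 FPKM with MinE07, 2.39, 2.63 and 2.69 with C36, and 2.78, 3.05 and 2.81 with vehicle. MinE07 lay above both other groups, and the log2 difference from C36 was 0.27 (adjusted p 0.218 by limma); the fit of all 36 libraries gave an adjusted p of 0.018. In A549 PIK3IP1 was listed between 0.150 and 0.248 FPKM in all 9 libraries. The response exceeded that of A549 by 0.95 in H3255 (adjusted p 4.25e-11), by 0.94 in H1975 (adjusted p 7.79e-10) and by 0.32 in H820 (adjusted p 0.0431) in the limma fit of all libraries. PIK3IP1 was under the minimum for a test in A549 and entered that fit through the other lines. Its A549 levels lie below the pseudocount of 0.5, which compresses any log2 difference there (-0.05 at a minimum of 0.1 FPKM). The 3 terms thus largely restate the change in the other line. The H820 term was lost when 1 library was left out (adjusted p 0.0545 to 0.121), for each MinE07 and C36 library of H820, A549 C36 libraries 2 and 3 and A549 MinE07 libraries 1 and 3.

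SELENOP (chr5:42799880-42887392, minus strand) stood higher with MinE07 in both L858R lines, from different starting levels. In H3255 it had 9.82, 10.7 and 10.6 FPKM with MinE07, 5.73, 6.13 and 5.86 with C36, and 5.94, 6.48 and 6.36 with vehicle. MinE07 lay above all other libraries and C36 overlapped vehicle. SELENOP rose 1.75-fold by the means, 0.76 on the log2 scale (SE 0.047, adjusted p 1.35e-06 by limma), and by 0.68 against vehicle (adjusted p 2.74e-06).
In H1975, where the values chose the gene, SELENOP had 2.20, 1.93 and 2.14 FPKM with MinE07, 0.601, 0.611 and 0.628 with C36, and 1.05, 1.16 and 0.992 with vehicle. The 3 groups were apart, with C36 lowest, so MinE07 stood 3.41-fold above C36 and 1.96-fold above vehicle by the means. On the log2 scale these differences were 1.22 and 0.73, and C36 minus vehicle was -0.49. At a pseudocount of 0.1 the first was 1.62 and at 1 it was 0.94, since the levels are near the pseudocount.
H820, the line with the most SELENOP, had 26.4, 24.4 and 23.5 FPKM with MinE07, 22.0, 19.9 and 22.8 with C36, and 24.1, 26.2 and 27.4 with vehicle. MinE07 lay above C36 by 0.20 on the log2 scale (adjusted p 0.367 by limma) and overlapped vehicle. C36 lay below vehicle by 0.26 (adjusted p 0.067; 0.0323 in the limma fit of all 36 libraries). The 9 A549 libraries had between 0.160 and 0.325 FPKM, and the response of H3255 exceeded that of A549 by 0.79 (adjusted p 8.39e-07 by limma). SELENOP was under the minimum for a test in A549, at levels below the pseudocount of 0.5, which compresses any log2 difference there. That term thus largely restates the rise of 0.76 in H3255. CCDC152 shares 1452 exon bases with SELENOP on the opposite strand in GENCODE 29, and the files list it at no more than 0.148 FPKM.

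**Figure D3:**
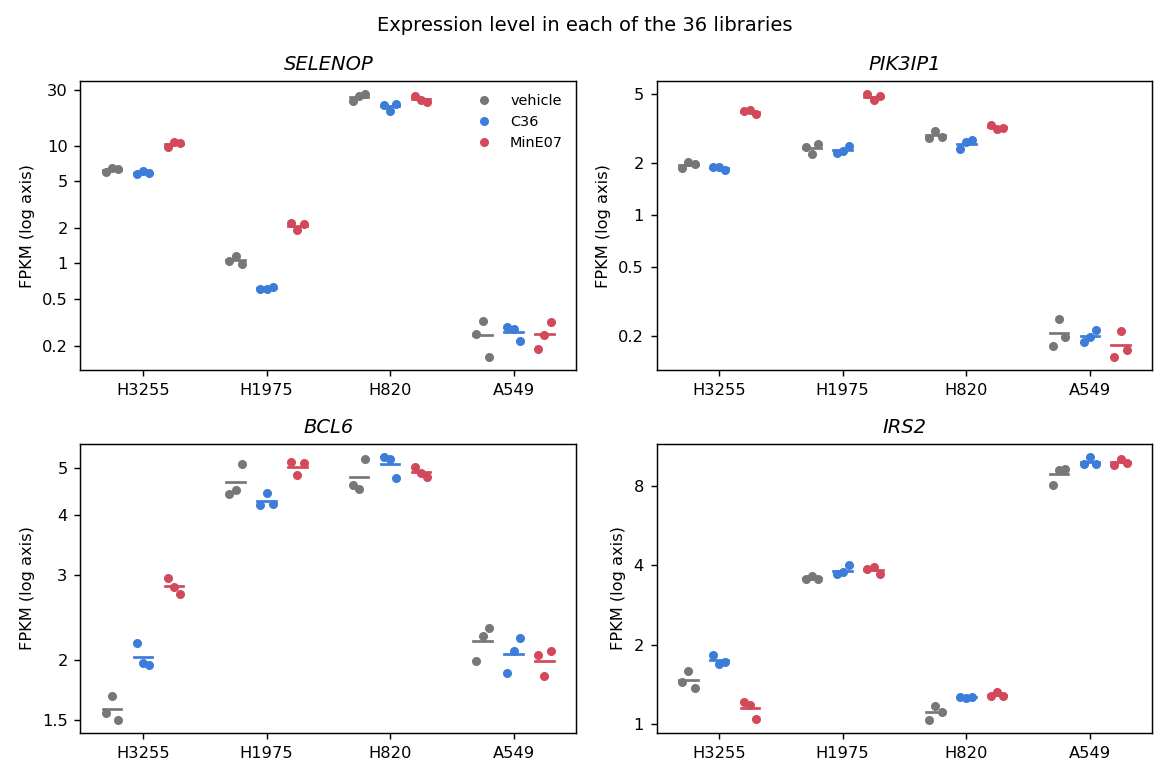
FPKM (log axis) of SELENOP, PIK3IP1, BCL6 and IRS2 in all 36 libraries, 1 point per library and a bar at each group's mean. MinE07 points lie above the other groups for PIK3IP1 and SELENOP in H3255 and H1975, and below them for IRS2 in H3255.

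BCL6 (chr3:187721377-187745727, minus strand), which FOXO proteins are known to activate and which represses cyclin D2 among other genes, rose in both L858R lines. In H3255 it had 2.96, 2.83 and 2.74 FPKM with MinE07, 2.17, 1.97 and 1.95 with C36, and 1.55, 1.69 and 1.51 with vehicle. The 3 groups did not overlap: vehicle was lowest, C36 between and MinE07 highest. The rise was 0.40 against C36 (SE 0.057, adjusted p 0.000377) and 0.68 against vehicle (adjusted p 9.80e-06) by limma, and C36 minus vehicle was 0.28 (adjusted p 0.0734; 0.00742 when all 36 libraries were fitted).
In H1975 BCL6 had 5.13, 4.84 and 5.11 FPKM with MinE07, 4.18, 4.43 and 4.21 with C36, and 4.41, 4.50 and 5.09 with vehicle. MinE07 was above C36 but overlapped vehicle, of which library 3 was high. The rise against C36 was 0.21 (SE 0.054, adjusted p 0.0216 by limma). It did not pass without C36 library 1 or 3 or MinE07 library 1 or 3 (adjusted p 0.0659 to 0.0724), or with no filter on low values (0.0809). The H3255 response exceeded that of A549 by 0.44 (adjusted p 0.00027 by limma).

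CCNG2, which slows the cell cycle and is a known FOXO target, differed from C36 in opposite directions in the L858R lines. In H3255 it had 5.47, 5.88 and 5.70 FPKM with MinE07, 6.34, 6.67 and 6.25 with C36, and 6.93, 6.90 and 7.36 with vehicle. The groups did not overlap, and MinE07 was the lowest. CCNG2 fell by 0.16 against C36 (SE 0.043, adjusted p 0.0138; 0.0577 without C36 library 2) and by 0.29 against vehicle (adjusted p 0.000473) in limma.
In H1975 the values were 6.52, 6.06 and 6.40 FPKM with MinE07, 5.52, 5.35 and 5.30 with C36, and 5.92, 6.15 and 5.81 with vehicle. MinE07 stood above C36 and overlapped vehicle, with a difference from vehicle of 0.08 (adjusted p 0.184 by limma). The C36 libraries all lay below vehicle, and C36 minus vehicle was -0.13 (adjusted p 0.174 by limma). The rise against C36 was 0.21 (SE 0.040, adjusted p 0.00556 by limma), and the 2 responses differed by -0.38 (H3255 minus H1975, adjusted p 0.000162). Its paralog CCNG1, a p53 target, had differences from C36 between 0.00 and 0.17 in the 4 lines, none of which passed.

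TXNIP was abundant in the 3 EGFR-mutant lines and differed by small amounts between treatments. In H1975 it had 101.0, 100.1 and 100.5 FPKM with MinE07, 88.0, 86.5 and 86.3 with C36, and 83.8, 87.5 and 84.6 with vehicle. MinE07 was apart from both, 15.6% above C36 by the means, a rise of 0.21 (SE 0.027, adjusted p 0.000795 by limma). H3255 libraries had 90.6, 94.6 and 95.4 FPKM with MinE07, 89.1, 90.4 and 89.5 with C36, and 81.2, 81.1 and 85.5 with vehicle.
There the difference from C36 was 0.06 (adjusted p 0.184), and the rise against vehicle was 0.18 (adjusted p 0.00173) by limma. In the fit of all 36 libraries the calls of TXNIP did not pass (adjusted p 0.171 in H1975 against C36, 0.107 against vehicle, and 0.196 in H3255 against vehicle), and the A549 libraries, at 0.231 to 0.735 FPKM, spread widely. TXN, the thioredoxin that TXNIP binds, fell in H3255 from 219.7 ± 5.82 to 174.8 ± 16.6 FPKM (log2 change -0.33, adjusted p 0.00136 by limma), and no other of the 6 partner genes listed passed against C36 in any line. MLX, the partner of the glucose-sensing factors, passed without MinE07 library 3 in H3255 and without vehicle library 2 in H1975, which made the counts 2 and 1. ARRDC4, the closest relative of TXNIP, had differences from C36 of -0.03 in H3255 and -0.07 in H1975, neither of which passed.

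SESN3 passed the test against vehicle in H820, with both aptamers lower. Its H820 libraries had 6.83, 5.83 and 5.88 FPKM with MinE07, 6.12, 5.93 and 6.38 with C36, and 7.91, 7.74 and 7.88 with vehicle. Both aptamer groups lay below vehicle and overlapped each other. SESN3 fell by 0.32 with MinE07 (adjusted p 0.0146) and by 0.33 with C36 (adjusted p 0.0149) in limma, while 3.02% and 2.85% of all genes were called in these comparisons, 1.03% and 1.29% lower. The fibroblast markers, mostly LUM, summed to 36.2 to 39.1 FPKM with vehicle, 40.9 to 44.6 with C36 and 44.2 to 46.7 with MinE07 in H820. The alveolar markers, like SESN3, were lower with both aptamers, at 56.2 to 58.3 FPKM with vehicle, 46.1 to 47.7 with C36 and 45.8 to 50.6 with MinE07. The part of these markers in the H820 results was not tested. The fall with MinE07 did not pass without MinE07 library 2 or 3 or vehicle library 1 or 2 (adjusted p 0.0512 to 0.0586). The fall with C36 did not pass without C36 library 1 or 2 or vehicle library 1 or 2 (adjusted p 0.0536 to 0.0647).
CCNG2 was the other member called in H820, lower with C36 than with vehicle by 0.24 on the log2 scale (adjusted p 0.0319 by limma). Its libraries had 6.94, 6.61 and 7.50 FPKM with C36 and 8.05, 8.50 and 8.51 with vehicle, and it did not pass when any of these but C36 library 3 was left out (0.0566 to 0.113). In H3255, SESN3 libraries overlapped between MinE07 (6.19 to 6.30 FPKM) and C36 (5.99 to 6.66). In H1975 SESN3 was under the minimum for a test, at 0.789, 0.704 and 0.816 FPKM with MinE07 and 0.480, 0.516 and 0.597 with C36, and the groups were apart.
With a minimum mean of 0.1 FPKM the H1975 difference in SESN3 from C36 was 0.30 (adjusted p 0.023 by limma). Against vehicle it was 0.23 and did not pass (adjusted p 0.0576). In the limma fit of all 36 libraries the responses of H3255 and H1975 differed by -0.32 (adjusted p 0.00608). SESN3 entered that fit through the lines where it is higher. SESN2, a stress-induced sestrin, rose in H3255 from 3.46 ± 0.0837 to 4.14 ± 0.377 FPKM (0.23, adjusted p 0.0119; 0.0504 without MinE07 library 2). SESN1 had 2.93 ± 0.217 FPKM with C36 and 3.25 ± 0.0602 with MinE07 there (adjusted p 0.0807 by limma).

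Among the signalling members, IRS2 (chr13:109752698-109786568, minus strand) was the one that fell. In H3255 it had 1.21, 1.19 and 1.05 FPKM with MinE07, 1.83, 1.69 and 1.73 with C36, and 1.44, 1.59 and 1.37 with vehicle. The MinE07 libraries lay below all others, and C36 lay above vehicle. IRS2 fell by 0.45 against C36 (SE 0.064, adjusted p 0.000401) and by 0.26 against vehicle (adjusted p 0.00994) in limma, and C36 minus vehicle was 0.19 (adjusted p 0.194; 0.0251 when all 36 libraries were fitted).
In H1975 IRS2 ranged from 3.69 to 3.92 FPKM with MinE07 and from 3.70 to 3.99 with C36, and in A549 from 9.57 to 10.2 and from 9.67 to 10.3. These groups overlapped, with log2 differences of 0.00 (95% interval -0.09 to 0.10) and -0.01 (-0.13 to 0.12). In H820 it ran from 1.28 to 1.32 FPKM with MinE07 and from 1.25 to 1.27 with C36. The H3255 response lay below that of A549 by 0.44 (a difference of -0.44, adjusted p 1.43e-05) and differed from that of H1975 by -0.45 (adjusted p 1.53e-05 by limma).
IRS1, the other main insulin receptor substrate, fell in H3255 too, from 10.7 ± 0.171 to 7.52 ± 0.641 FPKM (-0.48, adjusted p 5.53e-05 by limma). INSR itself ranged from 1.90 to 2.11 FPKM with MinE07 and from 1.97 to 2.01 with C36 in H3255, a difference of 0.01 (95% interval -0.13 to 0.14). Its differences from C36 in H1975, H820 and A549 were 0.09, 0.04 and -0.04, with adjusted p of 0.421, 0.847 and 0.85. IGF1R, the related receptor, had 4.34 ± 0.236 FPKM with C36 and 4.35 ± 0.168 with MinE07 in H3255.

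The FOXO genes differed in level more between lines than between treatments. FOXO3 had 6.97, 7.61 and 7.05 FPKM with MinE07 in H3255, 6.17, 6.24 and 5.69 with C36, and 6.18, 6.52 and 6.09 with vehicle. MinE07 was above both, with rises of 0.24 against C36 (SE 0.049, adjusted p 0.00352) and 0.19 against vehicle (adjusted p 0.0119; 0.0506 without MinE07 library 2) by limma. FOXO3B, a near-identical copy that could share fragments with FOXO3, was listed at 1.32 to 1.65 FPKM in these aptamer libraries, so the level of FOXO3 is uncertain.
In H1975 FOXO3 had 10.7 to 11.2 FPKM with MinE07 and 10.3 to 10.6 with C36, a difference of 0.07 (adjusted p 0.174 by limma). The H3255 response exceeded that of A549 by 0.22 (adjusted p 0.0227), and not past the threshold without A549 C36 library 2, A549 MinE07 library 2, H3255 C36 library 3 or H3255 MinE07 library 2 (0.051 to 0.0795). FOXO1 in H3255 had 0.221, 0.265 and 0.222 FPKM with MinE07, 0.184, 0.201 and 0.146 with C36, and 0.168, 0.116 and 0.147 with vehicle. These libraries were apart between MinE07 and the others, at levels under the minimum for a test. With a minimum mean of 0.1 FPKM the FOXO1 difference from C36 was 0.12 and did not pass (adjusted p 0.192 by limma). Against vehicle it was 0.19 (adjusted p 0.0425).
In H820, FOXO1 overlapped between MinE07 (2.50 to 2.80 FPKM) and C36 (2.59 to 2.66). FOXO4 rose in H3255 from 1.27 ± 0.0397 to 1.74 ± 0.0506 FPKM (0.34, adjusted p 0.00109 by limma). It rose in H1975 from 3.78 ± 0.260 to 4.51 ± 0.0336 (0.23, adjusted p 0.0184), a call lost without C36 library 2 or 3 or MinE07 library 2 or 3 (0.0507 to 0.074). FOXO6 rose in H3255 from 1.54 ± 0.167 to 1.94 ± 0.209 (0.26, adjusted p 0.0319), lost without C36 library 1 or 2 or MinE07 library 1 (0.0667 to 0.116).

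Against vehicle, 5 members rose and 2 fell with MinE07 in H3255, where 38.6% of genes were called, 21.4% higher and 17.2% lower. In H1975 PIK3IP1 and TXNIP rose, where 23.7% were called and 10.8% higher. These comparisons share the MinE07 libraries with those above. PIK3IP1 stood 0.86 above vehicle in both lines on the log2 scale (adjusted p 6.12e-07 in H3255 and 3.89e-05 in H1975 by limma). With C36 against vehicle, no member with a test passed in H3255, H1975 or A549. In H3255 and H1975 0.305% and 0.233% of genes were called, and in A549 3.62% were called higher and 2.38% lower. At an unadjusted p under 0.05 these were 4 of 9, 1 of 7 and 2 of 6 members tested, beside 15.9%, 14.3% and 23.5% of all genes. SELENOP in H1975, without a test, is described above.
For MinE07 against vehicle in A549 no member passed, and 0.216% of genes were called. The response to MinE07 over C36 differed from A549 for 6 of 10 members in H3255, 4 with a larger and 2 with a smaller value, where 25.2% of 14572 genes differed, 11.3% with a larger and 14.0% with a smaller value. For H1975 against A549, 1 of 9 members with a test differed, PIK3IP1, where 12.6% of genes did, and for H820 against A549 1 of 10, where 0.323% did. Between H3255 and H1975 the response differed for 3 of 9, IRS2, CCNG2 and SESN3, each lower in H3255, where 15.2% of genes differed and 8.48% were lower. Of the terms counted here, those of PIK3IP1 and SELENOP against A549 rest on A549 levels under the minimum for a test. That of SESN3 rests on H1975 levels under it.

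A list of 24 other genes known to respond to FOXO proteins was set beside the members. It was chosen with earlier results of these data known, so its counts are a description and give no separate support. In H3255, 17 were tested, 8 rose, 2 fell (16.6% and 20.0% of all genes), and the median log2 difference between MinE07 and C36 was 0.12. In H1975, 19 were tested, 11 rose, 1 fell (8.88% and 11.1% of all genes), and the median was 0.17. Against vehicle, MinE07 gave 8 higher and 2 lower there, where 23.7% of all genes were called, and the median was 0.14. With C36 against vehicle in H1975, 0 rose and 2 fell (CITED2 and DEPP1), where 0.233% of all genes were called. Of these 19 differences 3 were positive and the median was -0.04, so C36 lay below vehicle for most of the list there. In H3255 MinE07 against vehicle gave 8 higher and 2 lower (21.4% and 17.2% of all genes), and C36 against vehicle gave 0. In H820 and in A549, 19 were tested against C36 and none passed, with medians of 0.03 and 0.02. There 3 and 2 had an unadjusted p under 0.05, as had 10.2% and 10.8% of all genes.
TSC22D3, the glucocorticoid-induced leucine zipper protein, rose in H3255 from 23.1 ± 0.392 to 35.0 ± 0.881 FPKM (0.59, adjusted p 4.28e-07 by limma) and in H1975 from 10.1 ± 0.270 to 13.7 ± 0.404 (0.43, adjusted p 0.000631). PINK1, a mitophagy kinase, rose in H3255 from 10.1 ± 0.330 to 13.4 ± 0.475 (0.39, adjusted p 8.06e-05). GADD45A, a growth arrest gene, fell there from 11.0 ± 0.189 to 7.79 ± 0.138 (-0.47, adjusted p 5.06e-06), against the direction of most of the list. In H1975 the largest differences were those of TNFSF10, FBXO32 and GABARAPL1.
TNFSF10, the death ligand TRAIL, rose in H1975 from 0.852 ± 0.141 to 1.88 ± 0.343 FPKM (0.81, adjusted p 0.00168 by limma). Its mean with C36 lay under 1 FPKM, so it reached the minimum for a test through higher groups. These levels are near the pseudocount of 0.5, on which the size of the log2 difference depends. FBXO32, the ubiquitin ligase atrogin-1, rose from 10.8 ± 0.0898 to 16.3 ± 0.376 (0.57, adjusted p 1.66e-05), and GABARAPL1, an autophagy gene, from 5.48 ± 0.434 to 8.17 ± 0.488 (0.54, adjusted p 0.000417). Of 16 genes tested in both lines, 8 passed in both, each in the same direction in H3255 and H1975, and BNIP3, a hypoxia-induced mitophagy receptor, was the one of them that fell (-0.38 and -0.28). Of all 12173 genes tested in both lines, 11.0% passed in both in the same direction. Since earlier results were known when the list was chosen, these 2 shares are not a test of it.

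**Figure D4:**
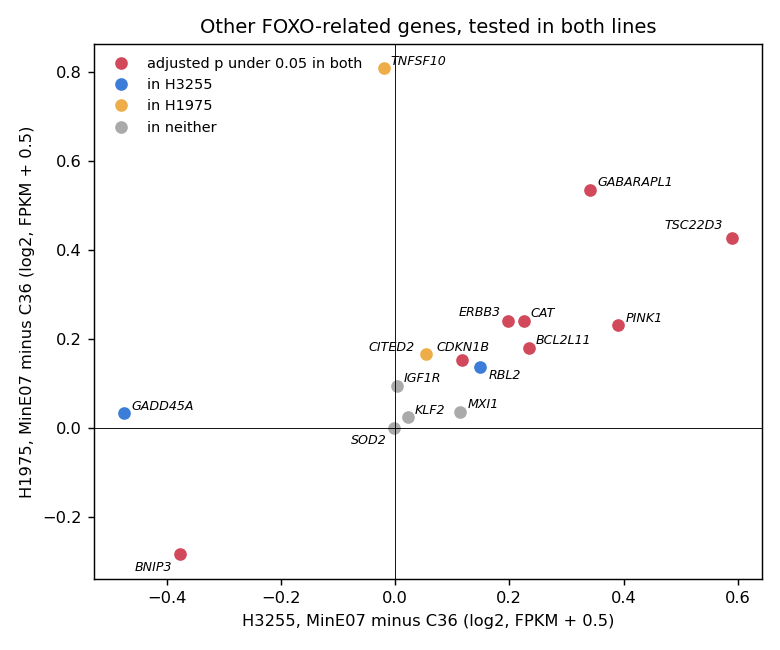
MinE07 minus C36 on the log2(FPKM + 0.5) scale in H3255 (x axis) and H1975 (y axis) for the 16 other FOXO-related genes tested in both lines, coloured by where the adjusted p was under 0.05. TSC22D3 and GABARAPL1 are high in both, TNFSF10 in H1975, and GADD45A is low in H3255.

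Of 25 components of the PI3K-AKT pathway, 23 were tested in H3255, where 2 rose and 5 fell, and 23 in H1975, where 2 rose and 0 fell. Over all genes 36.7% were called in H3255, 16.6% higher and 20.0% lower, and 19.9% in H1975, 8.88% higher and 11.1% lower. The counts are therefore not read as a result about this list. None passed in H820 or A549, where 2 of 25 and 0 of 24 had an unadjusted p under 0.05. Of all genes 10.2% and 10.8% had. The largest differences in H3255 were those of IRS1, given above, and SGK1, a kinase related to AKT that also phosphorylates FOXO3. SGK1 fell from 12.8 ± 0.284 to 9.82 ± 0.176 FPKM (-0.37, adjusted p 5.50e-05 by limma). PHLPP2, an AKT phosphatase, fell from 1.57 ± 0.0737 to 1.33 ± 0.0353 (-0.18, adjusted p 0.0256), lost without C36 library 1 or 2 or MinE07 library 1 or 3 (0.0528 to 0.0886).
Without C36 library 1 of H3255 the count was 3 in place of 7. In H1975 PIK3R3, a regulatory subunit of PI3K, rose from 3.52 ± 0.0648 to 4.73 ± 0.304 FPKM (0.38, adjusted p 0.000701 by limma). PIK3R2, another such subunit, rose there from 36.5 ± 1.29 to 40.1 ± 1.02 (0.13, adjusted p 0.0242), lost without C36 library 2 or 3 or MinE07 library 2 or 3 (0.0535 to 0.093). The H1975 count of 2 was 1 without C36 library 2 or MinE07 library 3.

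Of 23 other selenoprotein genes and genes that insert or take up selenium, 21 were tested in H3255, with 5 higher and 6 lower, and 22 in H1975, with 3 higher and 0 lower. Over all genes 16.6% were higher and 20.0% lower in H3255, and 8.88% and 11.1% in H1975. None passed in H820 or A549, where 2 of 21 and 2 of 23 had an unadjusted p under 0.05. Of all genes 10.2% and 10.8% had. SELENOM, a selenoprotein of the endoplasmic reticulum, rose in H3255 from 2.56 ± 0.327 to 3.80 ± 0.485 FPKM (0.49, adjusted p 0.00505 by limma). LRP8, a receptor that takes up selenoprotein P, fell there from 3.21 ± 0.174 to 2.29 ± 0.152 (-0.41, adjusted p 0.000386). GPX2, a glutathione peroxidase, rose from 10.1 ± 0.793 to 12.1 ± 0.0532 (0.26, adjusted p 0.00226).
In H1975 TXNRD1, a thioredoxin reductase, rose from 87.9 ± 0.616 to 107.7 ± 3.93 FPKM (0.29, adjusted p 0.000333 by limma), whereas in H3255 it fell (-0.24, adjusted p 0.000118). GPX3, a secreted glutathione peroxidase, rose in H1975 by 0.23 (adjusted p 0.0182; 0.066 and 0.0679 without C36 library 2 or MinE07 library 3). MSRB1 rose there by 0.17 (adjusted p 0.0465), which was lost without C36 library 2 or 3, vehicle library 2 or 3 or any MinE07 library (0.0563 to 0.156). The H1975 count was 1 without C36 library 2 or MinE07 library 3, and 5 without vehicle library 1.

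Likeness was measured as Pearson's r of log2(FPKM + 0.5) after removing each line's mean, over the 27 libraries of the 3 lines that express SELENOP, among 11612 genes. The points share treatment groups of 3 libraries, so r is a description. They also include the H1975 libraries whose values chose SELENOP, so each r and rank with SELENOP draws on those values and gives no separate support. Genes chosen for likeness had to move as the member did, so their levels are given without a test. SELENOP was most like TJP3, a tight junction gene (r 0.94), ELF3, an epithelial ETS factor (0.938), PLD1, a phospholipase (0.934), DEPTOR, an inhibitor of mTOR (0.923), and RHOBTB3 (0.923). PIK3IP1 ranked 7 of the 11612, with r 0.916.
DEPTOR had 16.0 ± 0.575 FPKM with C36 and 18.9 ± 0.603 with MinE07 in H3255, and 5.72 ± 0.234 and 8.34 ± 0.483 in H1975. PIK3IP1 was most like PBXIP1 (r 0.964), YPEL3 (0.963), YPEL5 (0.953), SELENBP1, a selenium-binding protein (0.951), and GPNMB (0.951). SELENBP1 had 8.63 ± 0.0250 FPKM with C36 and 18.1 ± 0.378 with MinE07 in H3255, and 6.56 ± 0.228 and 9.83 ± 0.676 in H1975.
IRS2, measured over 36 libraries and 10993 genes, was most like MIDN (r 0.845), MCL1, an antiapoptotic gene (0.842), KIF3B (0.838), EDEM1 (0.834) and TRIM8 (0.803). MIDN had 92.8 ± 1.26 FPKM with C36 and 74.6 ± 2.23 with MinE07 in H3255.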

How the data were processed

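RNA of the 36 libraries was prepared with a stranded poly-A kit and read in pairs, per the labels. The authors deposited FPKM per gene and library; the submitters' processing notes name HISAT2, Cuffdiff and GRCh38.p12 (hg38), and tool versions and the annotation were not given in the sources used here. Nothing states whether strand was used in counting. From each file of 68271 entries, 1874 without a name (at most 0.0028% of the FPKM) and 31 with repeated names were left out. Values were tested as log2(FPKM + 0.5) for genes averaging at least 1 FPKM, by limma 3.58.1 (R 4.3.3, trend and robust moderation, two-sided) in the 9 libraries of each line, with Benjamini-Hochberg adjustment and a threshold of 0.05. Differences between lines came from 1 fit of all 36 libraries with 12 groups. The limma fit for MinE07 minus C36 in H3255 was tested on simulated data, and the other steps were not. No 2 replicate libraries were duplicates: the median absolute log2 difference was at least 0.0524 in 36 pairs. Alternatives were the pseudocount, the filter, the scaling, limma without moderation by trend, the 36-library fit, a block of replicate number, further copies left out, and each library left out. All members were named, with up to 3 called genes of each list and line and the 5 genes most like SELENOP, PIK3IP1 and IRS2. Members and lists were chosen with earlier results of these data known.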

Additional observations from a re-analysis of the deposited data

Results flagged for a closer look

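The response of a member to MinE07 over C36 differed between lines in 11 cases, by an interaction term in limma over all 36 libraries. The terms of PIK3IP1 and SELENOP against A549, and of SESN3 against H1975, use levels under the minimum mean of 1 FPKM in that line. These members entered the fit through lines where they are higher, so their terms are not a clear difference between responses. H3255 minus A549 was 0.95 for PIK3IP1, 0.79 for SELENOP, 0.44 for BCL6, 0.22 for FOXO3, -0.23 for CCNG2 and -0.44 for IRS2 on the log2(FPKM + 0.5) scale, with adjusted p of 4.25e-11, 8.39e-07, 0.00027, 0.0227, 0.0112 and 1.43e-05. H1975 minus A549 was 0.94 for PIK3IP1 (adjusted p 7.79e-10), and H820 minus A549 was 0.32 (0.0431). H3255 minus H1975 was -0.38 for CCNG2, -0.45 for IRS2 and -0.32 for SESN3, with adjusted p of 0.000162, 1.53e-05 and 0.00608.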

How the results depend on the processing

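The 139 member results had 2567 values under the alternatives. None changed sign while called, 59 uncalled ones did, 45 lost the call (33 of them by leaving out a library) and 14 gained it. The response of PIK3IP1 in H820 minus A549 was lost at a pseudocount of 0.1 (adjusted p 0.089). Sets of called genes were least stable where few were called. For C36 minus vehicle, H3255, H1975 and H820 had 41, 33 and 392 genes called by limma, and A549 had 486 higher and 319 lower. It was 415 in H820 and 29 in A549 for MinE07 minus vehicle, and 5 in H820 and 0 in A549 for MinE07 minus C36. One fit of all 36 libraries gave 369, 270 and 2260 for C36 minus vehicle in H3255, H1975 and A549, 659 for MinE07 minus vehicle in A549, and 19 and 230 for MinE07 minus C36 in H820 and A549. In it 2 members in H3255 and 3 in A549 passed for C36 minus vehicle, 1 in H820 for MinE07 minus C36, and 1 further FOXO-responsive gene in A549 for MinE07 minus C36. With no filter on low values, MinE07 minus C36 gave 1740 in H1975 (2829 with it) and 3 in A549, MinE07 minus vehicle gave 2073 in H1975 (3364 with it), 125 in H820 and 4 in A549, C36 minus vehicle gave 6, 1, 82 and 158 in H3255, H1975, H820 and A549, and 0 members of H820 passed against vehicle with either aptamer. At a mean of at least 0.1 FPKM, C36 minus vehicle gave 17, 0 and 251 in H3255, H1975 and H820 with 1 member in H820, MinE07 minus vehicle gave 249 in H820 and 6 in A549, and MinE07 minus C36 gave 3 in H820 and 1 in A549. Rescaling by medians of ratios gave 138 in H3255 and 74 in H1975 for C36 minus vehicle and 69 in A549 for MinE07 minus vehicle, where a pseudocount of 0.1 gave 47. Without trend and robust moderation, C36 minus vehicle gave 6 in H3255, 16 in H1975 and 1 member in H820, MinE07 minus C36 gave 2 in H820, and MinE07 minus vehicle gave 5 in A549. The H820 minus A549 count of 47 was 84 with no filter, 89 at a pseudocount of 1 and 82 after rescaling.

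Leaving out 1 library at a time gave for C36 minus vehicle 4 to 65 genes (H3255), 0 to 214 (H1975), 90 to 370 (H820) and 103 to 1065 (A549). It gave 151 to 328 in H820 and 0 to 368 in A549 for MinE07 minus vehicle, and for MinE07 minus C36 1722 to 3272 (H1975), 2 to 6 (H820) and 0 to 3 (A549). H820 minus A549 had 14 to 72, and in H820 the members called against vehicle were 0 to 1 with MinE07 and 0 to 2 with C36.

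Correlations of same-numbered libraries ran from -0.163 to 0.246 and were not all above 0.1 in any of the 12 pairs of groups, so the numbers are not shown to pair the libraries. With the replicate block, CCNG2 in H820 (C36 minus vehicle) was the 1 member call lost (adjusted p 0.0724), which left 1 member there, and 0 were gained. The block gave 17, 0, 157 and 288 genes in H3255, H1975, H820 and A549 for C36 minus vehicle, 186 in H820 and 0 in A549 for MinE07 minus vehicle, and 1 in H820 for MinE07 minus C36. Read depth is not given, so low values such as SELENOP in A549 have no counting interval.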

Other observations

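Some of the other genes known to respond to FOXO proteins differed between C36 and vehicle in A549, where no member passed (3 did in the fit of all 36 libraries): TNFSF10, TSC22D3, ERBB3, GADD45A and SOD2 were higher, 5 of 19 tested, where 3.62% of all genes were called higher. TSC22D3 had 3.24 ± 0.0112 FPKM with vehicle and 4.55 ± 0.358 with C36 (0.43, adjusted p 0.00907 by limma), and 4.21 ± 0.356 with MinE07. ERBB3, the receptor that binds PI3K when paired with EGFR or ERBB2, had 6.66 ± 0.203 with vehicle and 8.75 ± 0.125 with C36 (0.37, adjusted p 0.00615). With MinE07 it had 8.58 ± 0.562, also above vehicle (0.34, adjusted p 0.044 by limma). It was the 1 gene of the list called for MinE07 against vehicle in A549, where 0.216% of all genes were called. The stress sestrin SESN2 was higher with C36 than with vehicle in A549 too (0.31, adjusted p 0.0082). The leukocyte markers, nearly all CD68, summed in A549 to 92.8 to 96.8 FPKM with C36 and 66.4 to 80.8 with vehicle, and their part in this was not tested. The count of 5 fell to between 1 and 3 when any A549 aptamer library, or vehicle library 2 or 3, was left out, to 1 with no filter on low values, and to 3 at a mean of at least 0.1 FPKM, with the replicate block or without trend and robust moderation.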
